A study of Mus musculus with 2 samples.

Results

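Messenger RNAs of 9 genes that build the postsynaptic side of excitatory synapses held peaks of RNA immunoprecipitated with the RNA helicase Mov10 from newborn mouse brain. The 9 genes are Dlg4, Dlgap1, Dlgap3 and Dlgap4, which encode scaffold proteins, and Cnih2, Prrt1, Cacng4, Neto1 and Lrrtm4, whose products accompany or anchor glutamate receptors. They were chosen by their peaks in these data, so their enrichment over input is given as a description and no test is made of it. Every peak that shared at least 1 base with an exon of a listed gene on the strand opposite the peak was taken, whatever its p-value, and this gave 13 peaks of the 2296 analysed here. The study's methods state a larger number of peaks, so the list analysed here may not be complete, and a gene or chromosome strand without a peak in it may have one elsewhere. The smallest overlap was 104 exonic bases (the first Prrt1 peak), and the gene bodies held 0 further peaks on either strand. Of the 2296 peaks, 768 lay over an exon on the opposite strand and 657 of those lay over a protein-coding transcript of 441 genes.

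RNA immunoprecipitated with an antibody to Mov10 (Mov10 IP) was set against total RNA of the brain lysate (input). Both came from whole brains of WT C57bl/6 mice at P2, with 28 animals pooled, and there was 1 library of each kind and no replicate. Brains for sequencing were not cross-linked with UV light, and the lysate was passed over an irrelevant antibody before the Mov10 IP. Whether RNA of a peak was held by Mov10 or by the beads was not tested, since the library of the irrelevant antibody was not analysed here. The study's methods call what that antibody contributed negligible and state that it was left out. With 1 library of each kind, all values compare these libraries, and every interval below covers counting error only. Exonic peaks were found for 4 of 7 neuronal markers (Tubb3, Map2, Snap25 and Syt1). They were found for 0 of 6 astrocyte and radial glial markers and 1 of 5 markers of the oligodendrocyte lineage (Olig1). The counts were 0 of 4 for microglia and 1 of 3 for endothelium (Cldn5), beside 2.04% of all protein-coding genes. A peak marks enrichment of the IP over the input, not expression, so these counts do not check the tissue. All 7 neuronal markers lay opposite a chromosome strand with any peak, as did 4, 4, 3 and 3 of the markers of the other cell types in that order, and these small counts are not compared between cell types.

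Mov10 is an RNA helicase that binds mRNAs, often in their 3' UTR, and acts together with Argonaute and Fmrp in microRNA-dependent regulation. Excitatory synapses are organised by a protein mesh under the postsynaptic membrane, the postsynaptic density. Its core is the Dlg4 product PSD-95, which holds receptors through PDZ domains and is joined to deeper layers by the SAPAP proteins of the Dlgap family. AMPA receptors, the channels that carry most fast excitatory current, travel and gate together with auxiliary proteins such as cornichons and TARPs, and adhesion proteins of the LRRTM family help to hold them at the synapse.

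In each of the 13 peaks the Mov10 IP held more reads than the input (plot of the reads of both libraries). After division by the aligned reads of each library, the ratio of IP to input ran from 6.78 in the first Dlgap3 peak to 43.1 in the second Prrt1 peak, and the 95% interval of the ratio (exact conditional binomial) lay above 1 in 13 of 13 peaks. The same held for 99.8% of the 657 coding-gene peaks, so this count says nothing particular to these genes. The median ratio, with a pseudocount of 0.5 on both counts, was 14.6 in the 13 peaks and 14.4 in the other 644 coding-gene peaks. With uniquely aligned reads as the totals each ratio given here would be 0.613 times as large, which makes the median of the 13 peaks 8.96 and their range 4.16 to 26.4. Together the 13 peaks held 37150 reads of the Mov10 IP and 1972 reads of the input.

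**Figure D1:**
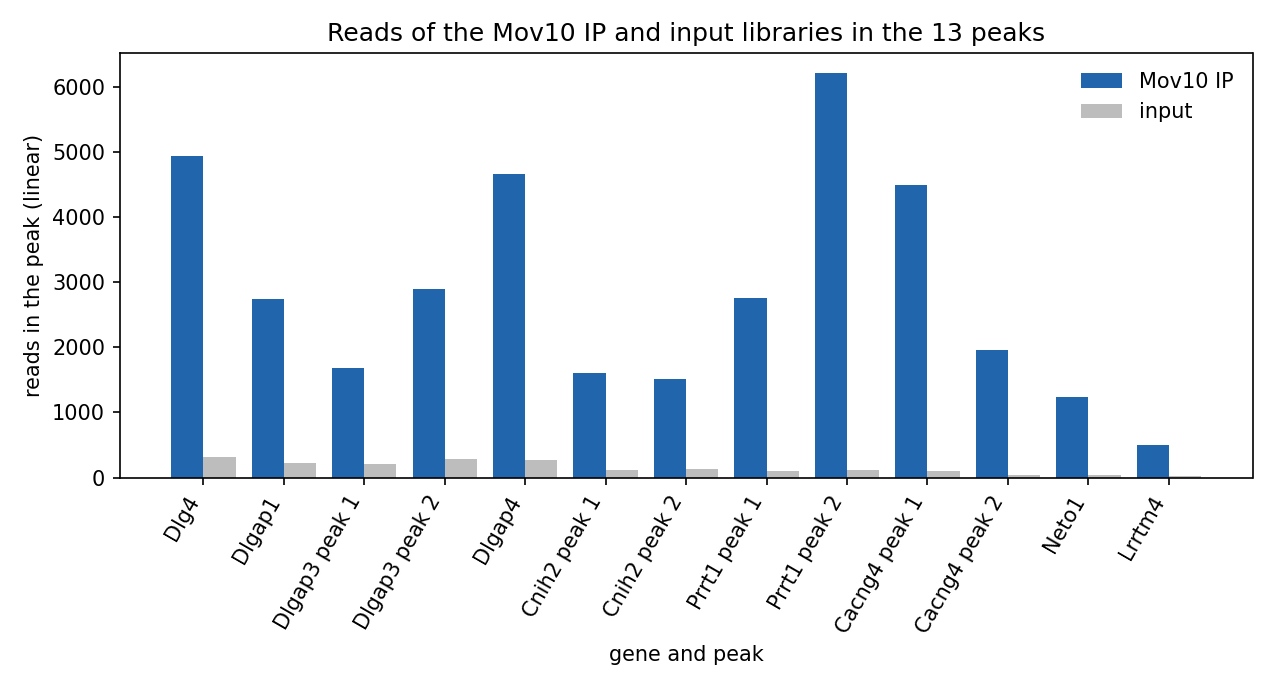
Reads of the Mov10 IP (blue) and of the input (grey) in each of the 13 peaks, on a linear axis that starts at 0, with genes along the horizontal axis and peaks of a gene numbered along its transcript. The IP bars run from 497 reads (Lrrtm4) to 6205 reads (Prrt1 peak 2), and the input bars from 27 reads (Lrrtm4) to 311 reads (Dlg4).

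The peaks of the scaffold genes had the lower median ratio and the higher input. Over the 5 peaks of Dlg4, Dlgap1, Dlgap3 and Dlgap4 the ratio lay between 6.78 and 14.6, with a median of 10.2, and the input held 683 to 1178 reads per 1000 bases of peak. Over the 8 peaks of Cnih2, Prrt1, Cacng4, Neto1 and Lrrtm4 the ratio lay between 9.46 and 43.1, with a median of 23.2, and the input held 135 to 665 reads per 1000 bases. The ranges of the ratios overlapped and those of the input did not. Over all 657 coding-gene peaks the median ratio was 14.5 with the pseudocount, and the median input was 425 reads per 1000 bases. The lowest IP count called a peak was 1406 to 4075 reads on the chromosome strands of the scaffold peaks. On those of the others it was 425 to 2337 reads, and its part in these ranges was not tested. The IP read density overlapped broadly, at 7051 to 20693 reads per 1000 bases in the scaffold peaks and 2485 to 15513 in the others (plot of IP against input density). The median IP density was 12322.5 reads per 1000 bases in the scaffold peaks and 8917.5 in the others. The median input density was 1010 in the scaffold peaks and 284 in the others. Since the input is the denominator of the ratio, the part of the input level in the order of the ratios was not tested. In whole-brain RNA, an mRNA carried by few cells and one present at low level in many cannot be told apart.

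**Figure D2:**
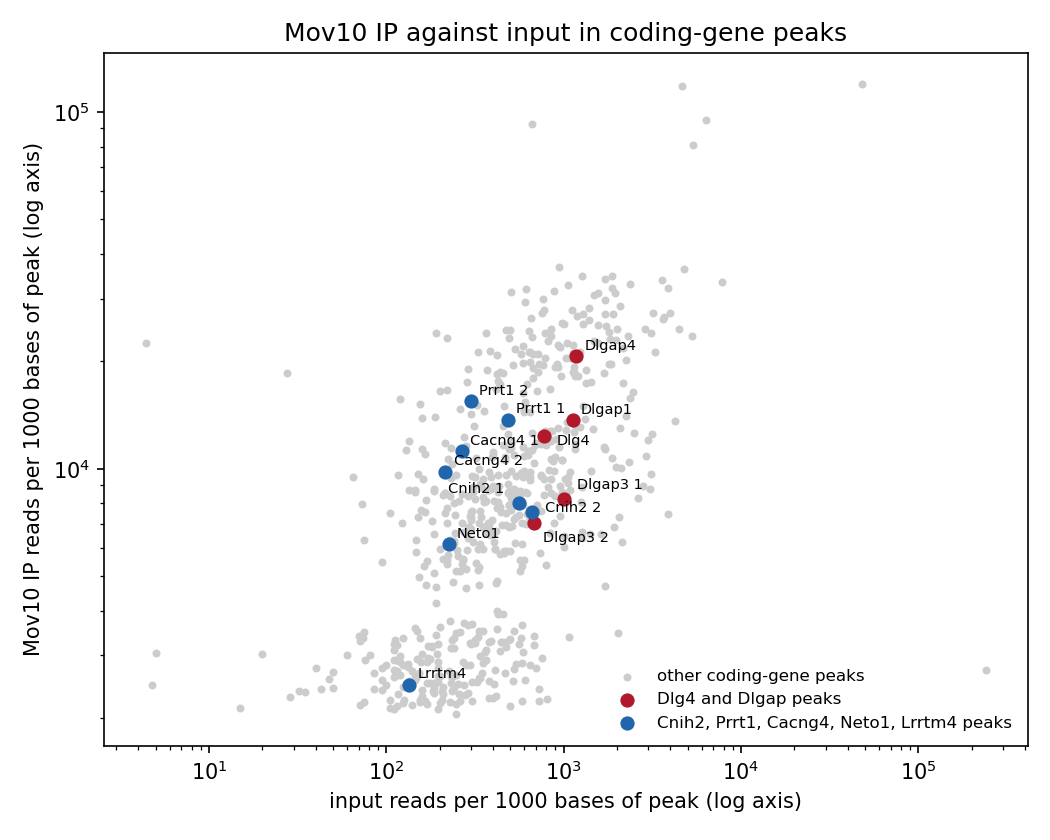
Mov10 IP reads per 1000 bases of peak (vertical, log axis) against input reads per 1000 bases (horizontal, log axis) for the scaffold peaks (red), the other peaks of the 9 genes (blue) and 641 other coding-gene peaks (grey). Another 3 peaks with no input read are not drawn. The red points lie at 683 to 1178 input reads per 1000 bases and the blue points at 135 to 665.

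Dlg4 had 1 peak of 400 bases at the end of its coding sequence (chr11:70044601-70045000 of mm10, in exon 22 of 22), with 95 coding bases and 305 bases of 3' UTR. It held 4929 reads in the Mov10 IP, against 311 reads in the input, which gave an enrichment of 13.2 with an interval of 11.8 to 14.9. This was the highest IP count and the fifth highest ratio (rank 5) among the 12 coding-gene peaks called on that chromosome strand. The deposited adjusted p of the peak was 1 all the same. None of the 14 peaks on that chromosome strand passed the adjusted p of 0.05, so for Dlg4 the caller's p and its counts pointed in different directions. The log odds score of the Dlg4 peak was 691 for the IP with the mirror value of -691 for the control. In the passing peaks of the listed genes it ran from 594 to 752 for the IP and from -734 to -581 for the control. The size of the score did not set Dlg4 apart. Among strands with peaks, 3 of 31 had no passing peak, and they held 71 peaks.

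Dlg4 mRNA is a known ligand of Fmrp, a protein that can bind G-quadruplexes, which are folds of G-rich RNA. The Dlg4 peak held 1 match to a G-quadruplex pattern, 4 runs of at least 3 G with spacers of 1 to 7 bases. It was read, like every motif below, on the mRNA strand only. A spacer could itself be a G, and in this match the longest unbroken run of G counted as separate runs. The match thus held only 3 unbroken runs of G. The match began 212 bases after the stop codon (chr11:70044907-70044927), and 6 of 66 3' UTR peaks of over 250 bases (9.09%) held such a match. The sequences show the coding end of the peak, with the stop codon in capitals, and 30 bases around the match, with the match in capitals.
Dlg4 coding end (chr11:70044601-70044695, plus strand): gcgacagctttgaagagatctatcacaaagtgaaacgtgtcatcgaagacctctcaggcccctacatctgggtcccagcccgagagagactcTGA
Dlg4 G-rich match: acctGGGGTCTGGGGGGGAGCTGGGctcct

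The 3 Dlgap genes encode SAPAP scaffolds that tie PSD-95 to Shank proteins. Dlgap1 had 1 peak of 200 bases inside the coding sequence (chr17:70761201-70761400, exon 7 of 12) with 2742 IP reads, against 225 input reads, which gave an enrichment of 10.2 (interval 8.86 to 11.7). Dlgap4 also had 1 coding peak (chr2:156746026-156746250, exon 8 of 13) with 4656 IP reads, against 265 input reads, which gave an enrichment of 14.6 (interval 12.9 to 16.6). At 20693 reads per 1000 bases it had the highest IP density of the 13 peaks. Of its 225 bases, 171 lay in the transcript with the longest coding sequence. In some transcripts paired with RefSeq records, the exonic bases of the peak lay mostly in the 5' UTR.

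Dlgap3 was the paralog with a peak in its coding sequence and another near the end of its mRNA. Its first peak lay in the coding sequence (chr4:127194916-127195120, exon 3 of 12) and held 1684 IP reads, against 207 input reads, which gave an enrichment of 6.78 (interval 5.87 to 7.87). The second lay in the 3' UTR (chr4:127236531-127236940, exon 12), began 163 bases after the stop codon and ended 82 bases before the end of the transcript. It held 2891 IP reads, against 280 input reads, which gave an enrichment of 8.61 (interval 7.61 to 9.77). The second peak was more enriched than the first by a factor of 1.27 (exact conditional odds ratio, interval 1.04 to 1.54), a narrow difference that still lay outside counting error.

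The coding peaks of Dlgap1 and Dlgap4 lay at similar places of their proteins' reading frames, codons 589 to 655 of 993 in Dlgap1 and codons 614 to 670 of 993 in Dlgap4. In a global alignment of the 2 coding sequences, 123 bases of the peaks were placed opposite each other. Identity over those 123 bases was 53.7%, against 67.3% over all aligned bases, so the overlap fell in a stretch less alike than the rest. The first Dlgap3 peak covered codons 102 to 170 of 978 and shared no aligned base with either. Both sequences are shown because the peaks meet in the alignment, with bases identical in the paralog in capitals.
Dlgap1 (chr17:70761201-70761400, plus strand): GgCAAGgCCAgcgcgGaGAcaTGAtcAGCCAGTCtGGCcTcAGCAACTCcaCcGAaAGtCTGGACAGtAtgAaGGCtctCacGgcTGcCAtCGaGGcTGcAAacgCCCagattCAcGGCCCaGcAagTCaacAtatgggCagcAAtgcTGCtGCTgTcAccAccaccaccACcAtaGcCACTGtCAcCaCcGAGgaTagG
Dlgap4 (chr2:156746026-156746196, plus strand): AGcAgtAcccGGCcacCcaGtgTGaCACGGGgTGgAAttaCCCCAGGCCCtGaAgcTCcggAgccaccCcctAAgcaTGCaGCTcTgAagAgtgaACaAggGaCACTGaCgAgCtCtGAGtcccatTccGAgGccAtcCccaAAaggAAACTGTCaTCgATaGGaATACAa

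**Figure D3:**
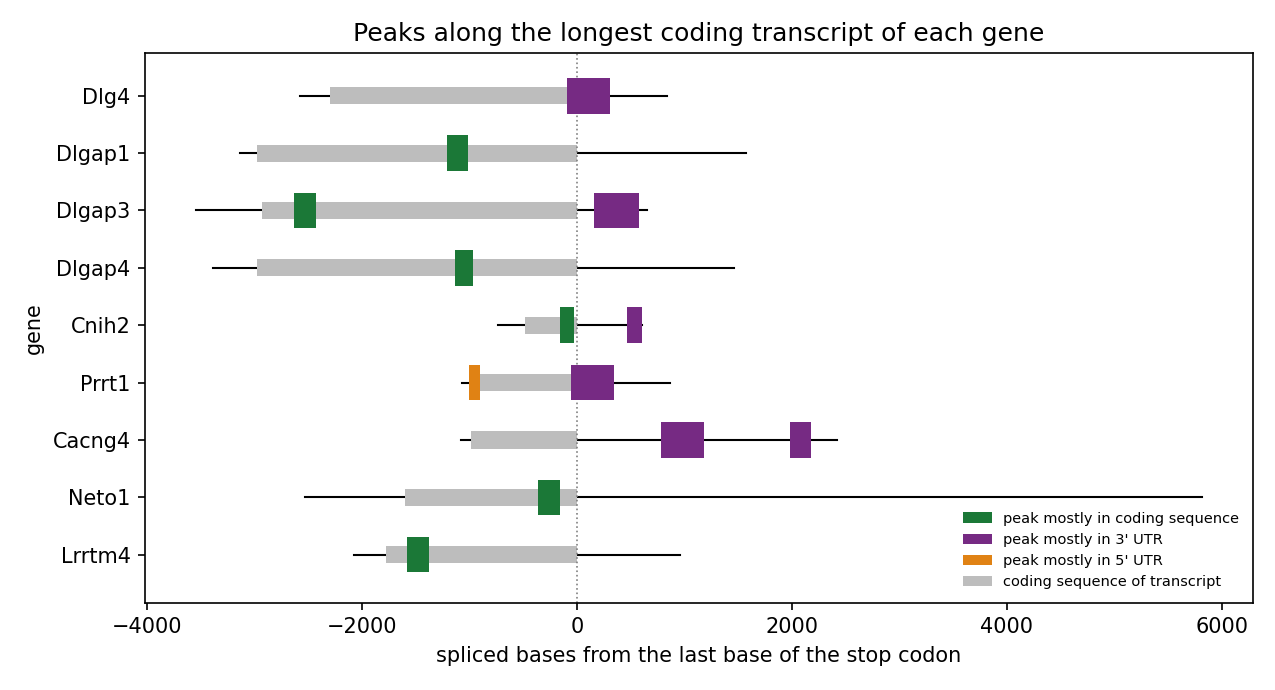
The 13 peaks drawn to scale on the longest coding transcript of each gene, with 0 at the last base of the stop codon. Thin lines are UTRs, grey bars coding sequence, and coloured blocks the exonic part of a peak (green mostly coding, purple mostly 3' UTR, orange mostly 5' UTR). The Dlg4 block and the second Prrt1 block cross the stop codon, and the Dlgap1 and Dlgap4 blocks sit at similar distances before it.

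Cnih2 encodes a cornichon, a small membrane protein that slows the closing of AMPA receptors and aids their export. Its first peak (chr19:5093601-5093800) covered 129 coding bases of exon 5 of 6, with 71 bases outside the exon. That peak held 1603 IP reads, against 112 input reads, which gave an enrichment of 11.9 (interval 9.85 to 14.6). Its second lay at the very end of the gene (chr19:5092801-5093000, exon 6), with 133 bases in the 3' UTR and 67 bases past the annotated end. It held 1510 IP reads, against 133 input reads, which gave an enrichment of 9.46 (interval 7.92 to 11.4). The second peak relative to the first gave a factor of 0.793 with an interval of 0.605 to 1.04, so the difference was within counting error. An exon of the neighbour Yif1a lies under the second peak on the peak's own strand, and the part of Yif1a in its reads was not tested.

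The second Cnih2 peak held the polyadenylation signal AATAAA, 17 bases before the transcript end. The hexamer was found in 26 of 139 3' UTR peaks of up to 250 bases (18.7%). It is shown in 30 bases of the mRNA, with the hexamer in capitals, because it lies beside the annotated end of the mRNA.
Cnih2 3' end (signal at chr19:5092885-5092890, minus strand): tgacaaaatatgAATAAActactgaaaaca

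Prrt1, also called SynDIG4, encodes a membrane protein found with AMPA receptors, largely outside the synapse, and its mRNA had the highest ratio of the 13 peaks. The first peak lay at the start of the gene (chr17:34629601-34629800, exon 1 of 4), with 85 bases of 5' UTR, 19 coding bases and 96 bases outside the exon. It held 2749 IP reads, against 97 input reads, which gave an enrichment of 23.6 (interval 19.3 to 29.2). The second crossed the stop codon (chr17:34632201-34632600, exon 4), with 60 coding bases and 340 bases of 3' UTR. It held 6205 IP reads, against 120 input reads, which gave an enrichment of 43.1 (interval 36.0 to 52.1), and ranked first (rank 1) in ratio and in IP reads among the 10 coding-gene peaks of its chromosome strand. The second peak exceeded the first by a factor of 1.82 (interval 1.38 to 2.41), the widest separation between peaks of a gene among the 4 genes with 2 peaks. The coding end of the second peak is shown with the stop codon in capitals.
Prrt1 coding end (chr17:34632201-34632260, plus strand): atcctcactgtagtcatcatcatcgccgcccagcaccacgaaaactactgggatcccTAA

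Cacng4 encodes TARP gamma-4, a claudin-like auxiliary subunit that carries AMPA receptors to the membrane. Both of its peaks lay in the 3' UTR of exon 4 of 4, with 800 spliced bases between them. The first (chr11:107733601-107734000) held 4490 IP reads, against 107 input reads, which gave an enrichment of 35.0 (interval 28.9 to 42.8). The second (chr11:107732601-107732800) held 1964 IP reads, against 43 input reads, which gave an enrichment of 38.1 (interval 28.2 to 52.8). They differed by a factor of 1.09 with an interval of 0.754 to 1.60, which is within counting error. The first peak holds a stretch, its bases 120 to 273, that matches transcripts of other genes. Of it, 100 bases matched a Tanc2 transcript at 95% identity, and transcripts of 242 genes matched at 90% or more over at least 50 bases. Reads of such a stretch may have several alignments, and the caller assigned each to a single place, so the first value of Cacng4 is uncertain. The second peak had no such copy, and among the other 11 peaks none had one either.

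Let-7 is a microRNA family abundant in brain. The 7-base complements of the seeds (bases 2 to 8) of 9 microRNAs were searched, namely ACCAAAG for miR-9-5p, CACTGTG for miR-128-3p, CTACCTC for let-7a-5p, CTCAGGG for miR-125b-5p, AGCAATA for miR-137-3p, CACCAGC for miR-138-5p, TACTTGA for miR-26a-5p, CAGTCAC for miR-134-5p and TGAATGT for miR-181a-5p. In the 3' UTR peaks of the 9 genes the one match was for let-7a-5p, in the second Cacng4 peak (chr11:107732731-107732737), 374 bases before the transcript end, and 3 of 139 3' UTR peaks of up to 250 bases (2.16%) held it. Both RNAs are shown, with the match and the seed in capitals.
Cacng4 match: tccgatgactcCTACCTCttgtccggttcc
mmu-let-7a-5p: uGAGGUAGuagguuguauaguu

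Lrrtm4 encodes a leucine-rich repeat adhesion protein that binds presynaptic heparan sulfate proteoglycans and stabilises AMPA receptors. It had the smallest counts of the 13 peaks and the lowest GC content. Its peak lay in the coding sequence (chr6:80021801-80022000, exon 2 of 3, codons 65 to 132 of 592) and held 497 IP reads, against 27 input reads, which gave an enrichment of 15.3 and the widest relative interval, 10.4 to 23.5. GC content was 38.5%. An exon of Gm4409 lies under the peak on the peak's own strand, and its part in the reads was not tested. The sequence is shown for its base composition, with a coding AATAAA in capitals, a hexamer found in 11 of 325 coding peaks of up to 250 bases (3.38%).
Lrrtm4 (chr6:80021801-80022000, plus strand): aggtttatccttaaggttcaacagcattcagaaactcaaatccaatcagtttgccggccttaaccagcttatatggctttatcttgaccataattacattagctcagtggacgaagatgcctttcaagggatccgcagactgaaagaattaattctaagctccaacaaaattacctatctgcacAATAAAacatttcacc

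Neto1 encodes a CUB-domain auxiliary subunit of kainate receptors that also associates with NMDA receptors. Its peak lay in the coding sequence, in exon 9 of 11 (chr18:86498801-86499000), and held 1230 IP reads, against 45 input reads. The ratio was 22.8 (interval 16.9 to 31.4). The peak held the 7-base complement of the miR-128-3p seed, CACTGTG, which 7 of 325 coding peaks of up to 250 bases (2.15%) held.

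**Figure D4:**
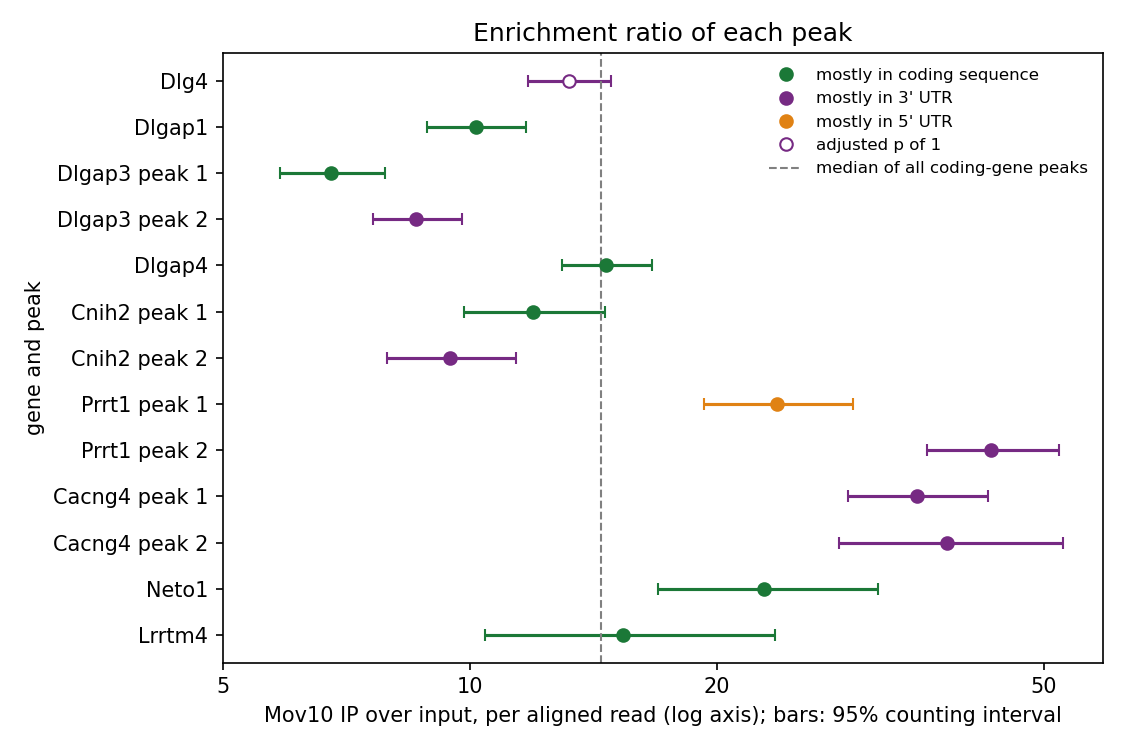
Ratio of Mov10 IP to input per aligned read (horizontal, log axis) for each of the 13 peaks, with 95% counting intervals as bars and colours for the place in the mRNA. The dashed line is the median of all 657 coding-gene peaks with the pseudocount, 14.5. The intervals of both Cacng4 peaks, of both Prrt1 peaks and of Neto1 lie to the right of the line, and those of Dlgap1, Dlgap3 and the second Cnih2 peak to its left.

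By the caller's adjusted p (RIPSeeker, from the reads of these libraries), 12 of 13 peaks passed 0.05, against 89.8% of the 657 coding-gene peaks, and 8 of the 9 genes had a passing peak, Dlg4 being the exception. Of all 22028 protein-coding genes, 1.82% had a passing exonic peak, and since the genes were picked from those with peaks this difference carries no weight. The adjusted p was listed as exactly 0 in 11 of the 12 passing peaks and as 1.44e-149 in Lrrtm4. At or under 0.05, the caller's empirical false discovery rate (eFDR) passed 1 of 13 peaks, Lrrtm4, against 37.7% of the coding-gene peaks. The eFDR followed the chromosome strand more than the peak, with a single value for all peaks on 17 of the 31 chromosome strands that had any. It was 0.0769 for Dlgap1 and both Prrt1 peaks, 0.0682 for both Dlgap3 peaks, 0.125 for Neto1, 0.227 for both Cacng4 peaks, 0.400 for both Cnih2 peaks and 0.478 for Dlgap4.

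The smallest IP count that was called a peak also differed between chromosome strands. It ranged from 425 to 4075 reads over the 8 chromosome strands with a peak of the 9 genes (plot of peaks beside others of the same strand). The Dlgap4 peak of 4656 reads stood in the strand with the highest of these counts, at rank 10 of 21 coding-gene peaks in IP reads. The Lrrtm4 peak of 497 reads stood in the strand with the lowest, at rank 89 of 113, and a peak of 497 reads would lie below the lowest count on each of the other 7. A ratio above the median of its own chromosome strand was found in 7 of the 13 peaks.

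**Figure D5:**
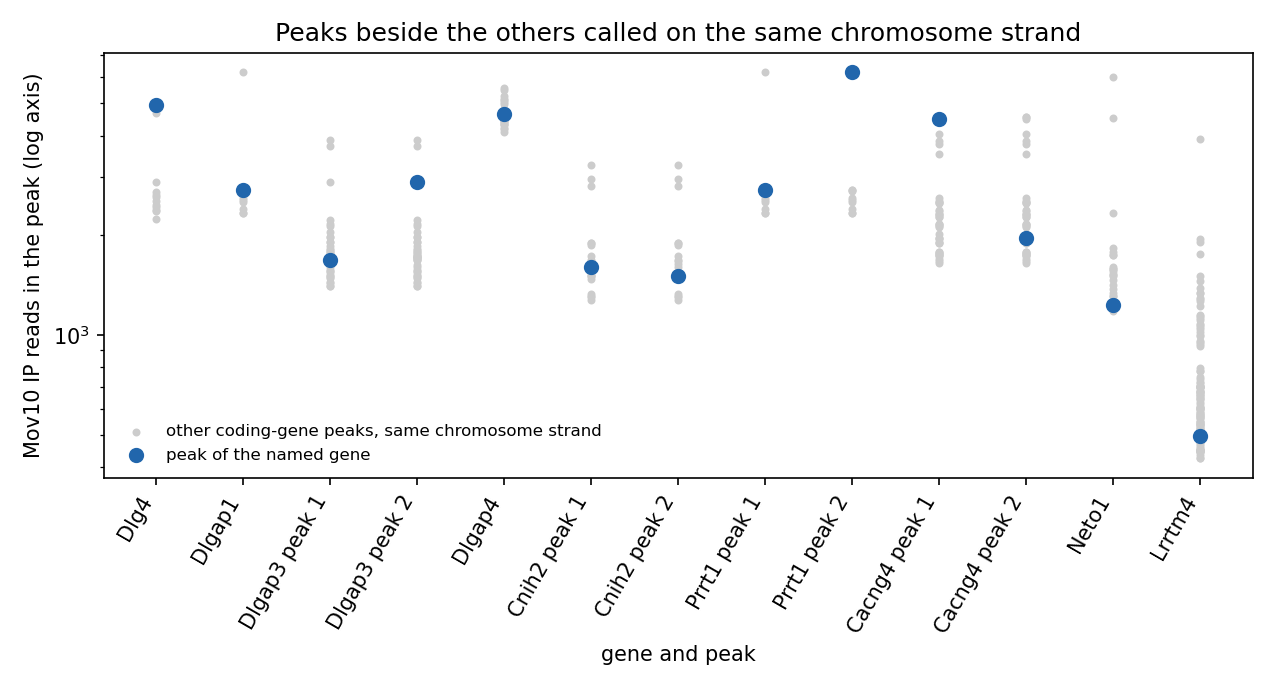
Mov10 IP reads (log axis) of each of the 13 peaks (blue) beside the other coding-gene peaks called on the same chromosome strand (grey). The lowest grey or blue point differs between strands, with 425 reads in the Lrrtm4 column and 4103 reads in the Dlgap4 column.

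In position, 6 of the 13 peaks lay mostly in coding sequence, 6 mostly in the 3' UTR and 1 mostly in the 5' UTR. Over the other 644 coding-gene peaks the shares were 58.7%, 30.9% and 10.4%. The stop codon lay inside 2 of the 13 peaks, Dlg4 and Prrt1, and inside 73 of the 644 (11.3%). Of the 9 genes, 4 had more than 1 peak, against 31.5% of the other 432 genes. GC content ran from 38.5% in Lrrtm4 to 67.1% in the second Dlgap3 peak. Its median was 56.7%, against 53.9% in the other peaks, but the coding peaks alone had a lower median (53.4%, against 55.1%) and the 3' UTR peaks a higher one (57.5%, against 49.8%). With 13 peaks of 9 genes these are descriptions without a test. The Pumilio motif TGTANATA had no match in the 13 peaks, and 13 of the 657 coding-gene peaks (1.98%) held it.

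In the 7 lists of postsynaptic genes, 75 genes were not among the 9, and 1 of the 75 (1.33%) had an exonic peak on the opposite strand, which passed. Over all 22028 protein-coding genes 2.04% had such a peak and 1.82% a passing one. With the 9 included, 10 of 84 listed genes had a peak and 9 a passing one. The 9 were chosen for having peaks, so neither share of the lists carries weight. The gene with a peak among the 75 was Nrgn, which encodes neurogranin, a postsynaptic protein that binds calmodulin. Its 3' UTR peak (chr9:37544981-37545200) held 20339 IP reads, against 146 input reads, which gave an enrichment of 116 (interval 98.7 to 138), higher than in each of the 13 peaks. Among 21 scaffold genes 4 had a peak (the Dlg and Dlgap genes above) and 3 a passing one. The same was found for 3 of 19 AMPA receptor auxiliary genes (Cnih2, Prrt1, Cacng4), 1 of 7 kainate receptor and Neto genes (Neto1), 1 of 17 adhesion organisers (Lrrtm4) and 1 of 9 kinases and effectors (Nrgn), and these peaks all passed. None of the 4 AMPA receptor subunit genes and none of the 7 NMDA receptor subunit genes had a peak. Apart from Nrgn, the genes with peaks in these lists are the 9 that were chosen for having them.

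A gene without a peak is not shown to be unbound. Of 42 chromosome strands, 11 had no peak at all, and 75.4% of protein-coding genes lay opposite a strand with any. Only 2 of the 4 AMPA receptor subunit genes, 4 of the 7 NMDA receptor subunit genes and 55 of the 75 other listed genes were in that position. Reads outside peaks were not analysed here, so the levels of those mRNAs in either library are unknown.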

How the data were processed

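RIP-seq reads of the Mov10 IP and of the input were aligned by the authors with TopHat2 2.1.1 to unmasked mm10, allowing many alignments per read, after base calling with bcl2fastq 2.17.1.14 (submitters' processing notes and the study's methods). RIPSeeker was run on each strand, IP against input, and assigned each read with several alignments to a single place. The deposited table lists for each peak whole-number read counts of both libraries, not scaled to depth, with p-value, adjusted p-value, eFDR and log odds scores. The value column names no sample, and the count field was taken as the Mov10 IP and the control count field as the input, after the naming of the peak caller, so the direction of each ratio rests on that reading. All were used as deposited, and no other column of values per sample was left out.

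Counts were divided by the aligned reads stated in the study's methods, 71522027 (Mov10 IP) and 59620379 (input). Intervals are exact conditional binomial (95%, scipy 1.17.1), tested on simulated independent Poisson counts, the model that they assume. That test does not cover the selection of peaks or the assignment of reads with several alignments. An input of 0 reads was set to a floor of 3. Exons came from GENCODE M21 (GRCm38), and the RefSeq alternative used GENCODE transcripts paired with RefSeq records. Peaks were placed in the transcript with the longest coding sequence. Copies were sought with BLAST+ 2.17.0 at 95% identity over 100 bases, and coding sequences aligned with Biopython 1.88. MicroRNA sequences are from RefSeq (9 of 10 sought were matched; mmu-miR-124-3p was not).

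The text names each of the 9 genes with every peak, other genes of the postsynaptic lists with an exonic peak, and genes that overlap or copy a peak. Members and lists were chosen with earlier results of these data known. With 1 library per group no p-value across genes is given. The library of the irrelevant antibody was not analysed here.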

Additional observations from a re-analysis of the deposited data

How the results depend on the processing

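No paired analysis was possible because each group held 1 library. Every ratio scales with the library totals. Dividing by uniquely aligned reads multiplied each by 0.613, so that the median ratio of the 13 peaks was 8.96 in place of 14.6 and the single peaks ran from 4.16 to 26.4. Dividing by all reads gave a median of 12.0. The order of the peaks and the factors between peaks of a gene do not use the totals. An eFDR at or under 0.05 in place of the adjusted p left 1 passing peak, 1 gene (Lrrtm4) and 0 of the 75 other postsynaptic genes, whereas an adjusted p of 0.01, RefSeq exons, exons on either strand and a 50% overlap each left 12 peaks and 8 genes. A pseudocount of 1 gave 14.6, passing peaks alone 14.9, and reads summed per gene or a 50% overlap 14.6. The smallest input counts, 27 reads in Lrrtm4, 43 in the second Cacng4 peak and 45 in Neto1, limit the precision of their ratios most.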
